A study of Mus musculus with 9 samples.

Results

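The proteasome is the protease of the cytosol and nucleus that degrades ubiquitin-tagged proteins, and its genes are described here by symbol. The rule took every protein-coding gene whose mouse symbol begins with Psma, Psmb, Psmc or Psmd, leaving out the immunosubunit genes Psmb8 and Psmb9, and it found 38 of 51912 genes. Of these 38, 36 averaged at least 1 CPM, a count scaled to a common library size with TMM factors, as did 14787 of all genes. The 2 below that level were Psma8, a testis variant of an alpha subunit, and Psmb11, the thymic catalytic subunit. The name "constitutive" does not hold for 4 of the 38 genes. Besides Psma8 and Psmb11 these are Psmb10, an interferon-inducible catalytic subunit, and Psmc3ip, a recombination factor that is no proteasome subunit and shares only the letters of the symbol. The other 34 are the constitutive subunits and 3 assembly chaperones.

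The series holds 9 RNA-seq libraries of fluorescence-sorted hippocampal pyramidal neurons from male Camk2a-Cre mice on C57BL/6, all of which received rAAV5-DIO-mCherry, an adeno-associated virus of serotype 5 with a Cre-dependent red fluorescent protein. The labels give 3 groups, injected with 2.88e+08, 2.88e+09 or 2.88e+10 vector genomes, of 3 biological replicates each, a wait of 3 weeks, and the low dose as control, so that no library comes from an uninjected animal. Cre is driven by the Camk2a promoter, which is active in excitatory forebrain neurons. The age of the mice, and whether animals were pooled, are not given in the sources that were used.

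No label ties a single library, S1001 to S1009 by title, to a dose. The deposited column headers carry the letter H for S1001 to S1003, M for S1004 to S1006 and L for S1007 to S1009. The labels do not explain these letters, so no dose is read from them here, all 9 libraries were left without a group, and no test between letters was made. Values are given side by side by letter as a description, and a gene is counted as lower or higher by letter only where the 3 libraries of one letter did not overlap the 3 of another.

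Proteasomes consist of a barrel-shaped core particle and a regulatory particle that caps it. Rings of alpha subunits gate the barrel, and rings of beta subunits hold the proteolytic sites of Psmb5, Psmb6 and Psmb7 inside it. The regulatory particle has a base with a ring of ATPases, the Psmc proteins, which unfold substrates, and a lid of Psmd proteins that includes the deubiquitinase Psmd14. Interferon induces Psmb8, Psmb9 and Psmb10, which replace Psmb5, Psmb6 and Psmb7 in the immunoproteasome. In neurons, proteasomes take part in protein quality control and in the turnover of synaptic proteins.

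Library totals lay between 12136830 and 19151596 counts, and each of the 34 constitutive genes had 477 to 9727 counts in every library. A count of 3, the limit that a count of 0 allows, corresponds to 0.158 to 0.246 CPM. Transcripts that mark other cell types were present, and whether they came from sorted cells or from carried-over RNA was not tested. The summed level of 10 microglial marker genes was 12438 to 13742 CPM in the H libraries, 4044 to 5258 CPM in the M libraries and 24.0 to 112 CPM in the L libraries. The excitatory neuron markers, 5 genes, summed to 3237 to 3658 CPM in the H libraries, 1609 to 1871 CPM in the M libraries and 3914 to 5915 CPM in the L libraries. The 5 plasma cell markers summed to 1089 to 1169 CPM in the H libraries, 4.65 to 10.4 CPM in the M libraries and 1.17 to 3.59 CPM in the L libraries. In such bulk libraries, fewer cells of a type and less RNA per cell cannot be told apart. Libraries of 1 letter were also not equally alike. By chi-square per degree of freedom over all genes, where sampling noise alone gives about 1, pairs of H libraries differed by 2.67 to 5.14, pairs of M libraries by 24.3 to 33.6 and pairs of L libraries by 27.2 to 38.9. No pair agreed within sampling noise.

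The proteasome genes varied little over the 9 libraries. Spread, on the log2(CPM + 1) scale, leaves out the top and the bottom library and takes the range of the other 7. On this measure none of the 36 genes reached a 2-fold spread, which 26.4% of all genes at 1 CPM did. Their median spread was 0.46 on the log2 scale, or 1.37-fold, against 0.66, or 1.58-fold, over all genes at 1 CPM. Over the 9646 genes that averaged 10 CPM or more it was 0.57. Of these 9646 genes, 1770 reached a 2-fold spread. Each of the 36 had a spread below the median over all genes at 1 CPM. Psmc4, Psmb6, Psmd2, Psmd13 and Psma7 were not below the median over genes at 10 CPM. With 5 CPM added in place of 1, the median spread was 0.45 for the members and 0.49 over all genes. From the lowest to the highest library, 34 of the 36 stayed within 2-fold, as did 47.4% of all genes. The exceptions were Psmd3, with a range of 1.16 on the log2 scale, and Psmb6, with 1.05.

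Within that narrow range, most members were lower in the H libraries. In 27 of 36, or 75.0%, all 3 H libraries lay below all 3 L libraries, which was the case for 26.2% of all genes, and in 0 of 36 did they lie above, against 24.7% of all genes. Set against the M libraries, the H libraries lay below in 16 of 36 (all genes 21.3%) and above in 1, Psmd1 (all genes 23.0%). The M libraries lay below the L libraries in 8 of 36 (all genes 15.5%) and above them in 1, Psmb7 (all genes 17.0%). These counts share libraries, and the genes of 1 complex measured in the same libraries are not independent of each other. Libraries as alike as those of H overlap another letter less easily. With DESeq2 size factors H lay below L in 23 of the same 27 genes. The 4 that then overlapped, Psma6, Psmb4, Psmb5 and Psmd3, had the narrowest gaps, of 0.02 to 0.05 on the log2 scale. Psma1 changed from overlap to H above L with those factors and with library totals, mitochondrial genes included or not. The microglial markers ran the other way, highest in the H libraries. The 7 inhibitory neuron markers summed to 275 to 321 CPM in the H libraries, 666 to 1486 CPM in the M libraries and 468 to 1769 CPM in the L libraries, so that their sum too was lowest in H. By single genes, H lay below L in 4 of these 7 and above in 0. In Sst, Pvalb and Vip H and L overlapped, and the lowest value of each was in an L library. Mitochondrial genes took 1.45% to 1.52% of counts in the H libraries, 0.866% to 1.15% in the M libraries and 0.482% to 0.756% in the L libraries. The part of these in the counts of members was not tested. The 9 members of the 36 with overlap between H and L were Psma1, Psma2, Psma3, Psma4, Psmb7, Psmb10, Psmc6, Psmd1 and Psmc3ip.

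**Figure D1:**
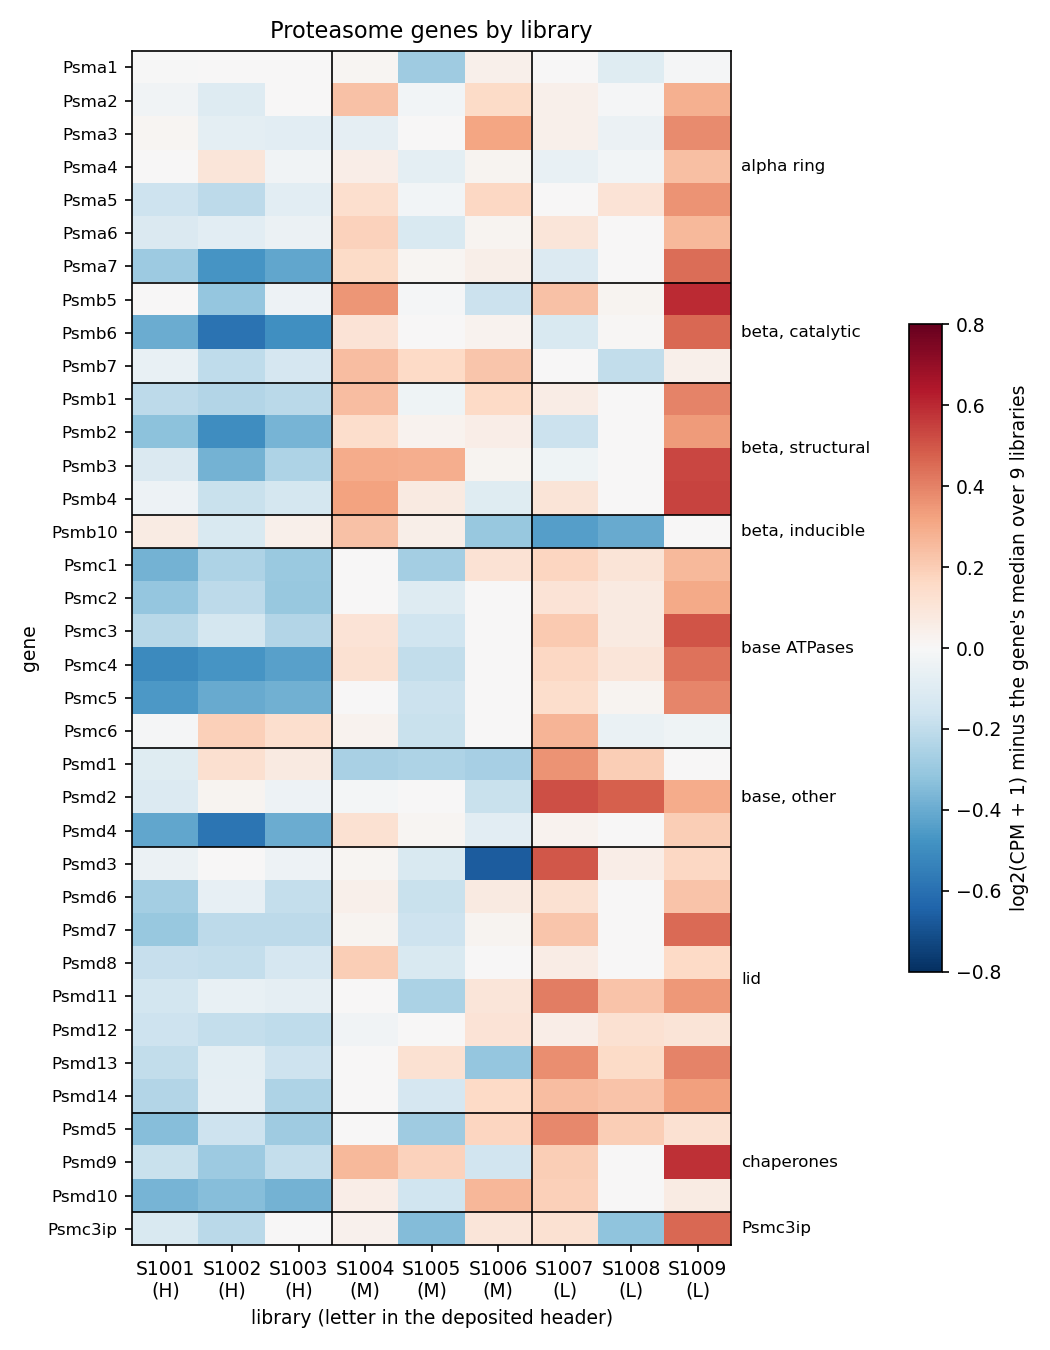
Each proteasome gene that averaged 1 CPM or more is a row, grouped by its place in the complex, and each library a column, with header letters H, M and L; colour is log2(CPM + 1) minus the gene's median over the 9 libraries. The H columns are below the median for most rows, S1009 is above it for most, and Psma1, Psma4 and Psmc6 are nearly flat.

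The joint level of the members shows the same. They made up 0.704%, 0.697% and 0.705% of all counts in the H libraries, 0.862%, 0.806% and 0.837% in the M libraries and 0.848%, 0.842% and 0.973% in the L libraries. The Wilson 95% interval of the lowest share, that of S1002, ran from 0.692% to 0.701%, and that of the highest, S1009, from 0.969% to 0.978%; these intervals cover counting error only. The H libraries were lowest and closest together, while S1009 stood above all others. S1009 was the highest library for 24 of the 36 genes, and 15.4% of all genes had their highest value there. A score, the mean over members of the log2 value centred on each gene's median, was -0.19, -0.19 and -0.17 in the H libraries, 0.09, -0.08 and 0.00 in the M libraries and 0.12, 0.03 and 0.29 in the L libraries. Its range of 0.49 dropped to 0.28 when S1009 was left out. Without S1009, 28 members had H below L, beside 33.2% of all genes; 3 libraries set against 2 overlap less easily.

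**Figure D2:**
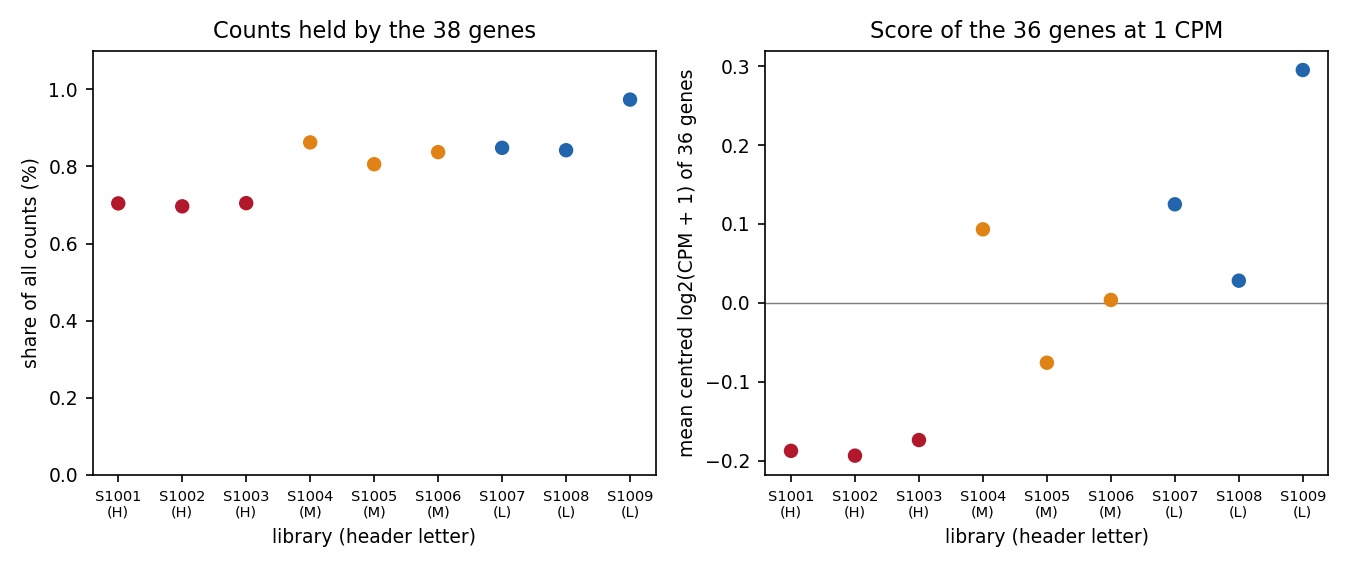
The plot of joint levels gives, per library in the order H, M and L, the members' share of all counts in percent and the mean centred log2 score, each for single libraries. The 3 H libraries lie at 0.697% to 0.705%, below the other 6, and S1009 is highest at 0.973%.

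The alpha ring was the part of the core particle that differed least. Its 7 genes had a median spread of 0.30 on the log2 scale, and 3 of the 7, Psma5, Psma6 and Psma7, had H below L. Over all genes, H lay below L in 26.2%. With DESeq2 size factors, H and L overlapped in Psma6. Psma5 had 168 to 183 CPM in the H libraries, 192 to 218 CPM in the M libraries and 194 to 249.9 CPM in the L libraries. Psma1 (ENSMUSG00000030751, chr7:114264606-114276118, minus strand), on the build mm10 as are all gene positions here, had the smallest spread of the 36, 0.11 on the log2 scale. It had 252, 253 and 253 CPM in the H libraries, 255, 207 and 259.8 CPM in the M libraries and 254, 236 and 250.5 CPM in the L libraries. The letters overlapped, and only S1005 stood apart, below the rest. Psma4 (ENSMUSG00000032301, chr9:54950790-54958030, plus strand) was close to it, with 186, 199 and 182 CPM in the H libraries, 193, 177 and 189 CPM in the M libraries and 179, 184 and 221 CPM in the L libraries and a spread of 0.15, and its highest library was S1009. Psma7 had the largest alpha spread, 0.57, with 243, 214 and 222 CPM in the H libraries, 330.4, 301 and 307 CPM in the M libraries and 275, 297 and 405 CPM in the L libraries. In this gene the H libraries lay below both M and L libraries, which overlapped each other. Psma6 (ENSMUSG00000021024, chr12:55384222-55418454, plus strand) had the highest median FPKM of the alpha genes, 172, and 194, 198 and 204 CPM in the H libraries, 239, 194 and 214 CPM in the M libraries and 225, 211 and 252 CPM in the L libraries. H and M overlapped in Psma6, and H and L were separated only by the step between 204 CPM in S1003 and 211 CPM in S1008. Psma2 and Psma3 overlapped between all letters; Psma2 overlaps AW209491 on the same strand and Psma3 lies opposite 3110056K07Rik, so that some of their reads are uncertain.

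The structural beta subunits, Psmb1 to Psmb4, which carry no active site, all had H below L (4 of 4), and 3 of them also had H below M. Over all genes, 26.2% had H below L and 21.3% had H below M. With DESeq2 size factors, H and L overlapped in Psmb4. Psmb1 (ENSMUSG00000014769, chr17:15475021-15499751, minus strand) had 276, 272 and 275 CPM in the H libraries, 379, 312 and 357 CPM in the M libraries and 333, 319.6 and 421 CPM in the L libraries. The gap between H and the other letters was clear, while M and L mixed. For Psmb2 the values were 275, 245 and 267 CPM in the H libraries, 382, 352 and 359 CPM in the M libraries and 307, 346 and 438 CPM in the L libraries, and M and L again mixed. In Psmb3 the H libraries lay at 209 to 251 CPM, below M at 276 to 335 CPM and L at 265 to 395 CPM. Psmb4 had the narrowest gap of the 4, with 298 CPM in S1001 against 307 CPM in S1008.

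The genes of the 3 catalytic subunits had 3 different patterns. Psmb5 (ENSMUSG00000022193, chr14:54614119-54618022, minus strand), the chymotrypsin-like site, had 354, 286 and 345 CPM in the H libraries, 453, 352 and 315 CPM in the M libraries and 416, 359.7 and 537 CPM in the L libraries. H lay below L by only the distance between 354 CPM in S1001 and 359.7 CPM in S1008, and H and M overlapped. Psmb6 (ENSMUSG00000018286, chr11:70525367-70527858, plus strand), the caspase-like site, had 331, 289 and 310.4 CPM in the H libraries, 470.2, 437 and 445 CPM in the M libraries and 402, 439 and 599 CPM in the L libraries, a spread of 0.60 on the log2 scale and the largest among the core genes. Here both M and L libraries lay above every H library, and S1009 was well above the rest. Psmb7 (ENSMUSG00000026750, chr2:38588036-38644087, minus strand), the trypsin-like site, had 118, 107 and 112 CPM in the H libraries, 147, 137 and 144 CPM in the M libraries and 123, 108 and 127 CPM in the L libraries. Among the 36 members at 1 CPM, Psmb7 was the only one whose M libraries all lay above the L libraries, and its H and L libraries overlapped. It lies opposite Nek6, a gene with a median of 47.8 CPM, and whether counting used strand is not given in the sources that were used.

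**Figure D3:**
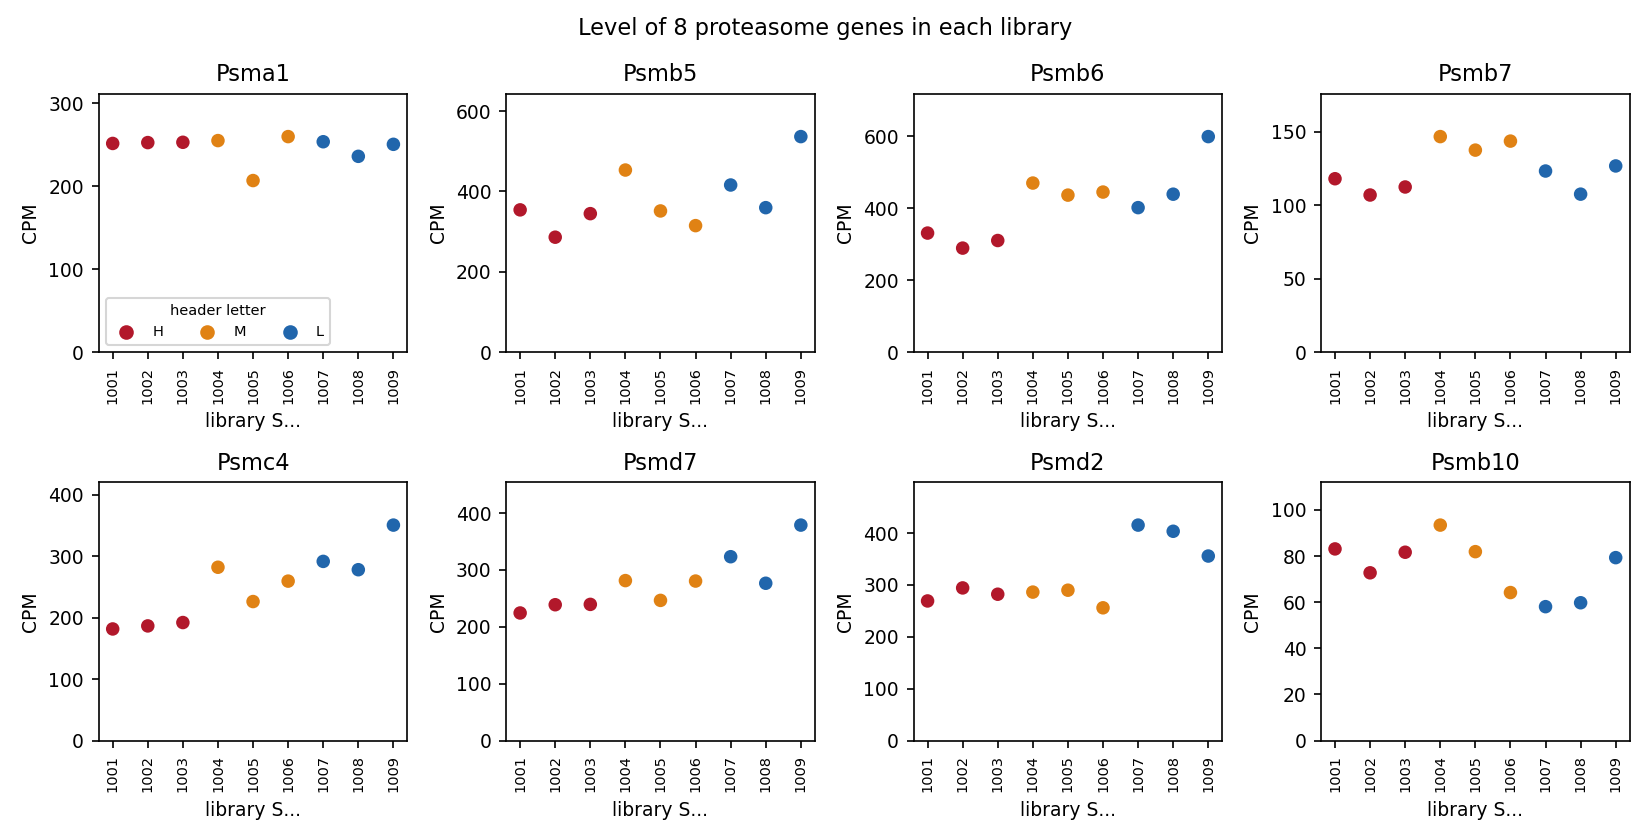
The plot of 8 single genes gives CPM per library on a linear axis from 0, for Psma1, Psmb5, Psmb6, Psmb7, Psmc4, Psmd7, Psmd2 and Psmb10, with 1 point per library and colours for the letters H, M and L. Psmc4 and Psmb6 have their H points lowest, Psma1 is level, and Psmb10 has no such order.

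The inducible subunit that the rule kept, Psmb10 (ENSMUSG00000031897, chr8:105935735-105938444, minus strand), had 83.1, 72.7 and 81.7 CPM in the H libraries, 93.4, 81.9 and 64.2 CPM in the M libraries and 58.1, 59.8 and 79.3 CPM in the L libraries. Its letters overlapped in every pairing, and its lowest values were the L libraries S1007 and S1008. The immunosubunits that the rule leaves out were far from level. Psmb8 had 184, 168 and 187 CPM in the H libraries, 82.5, 57.0 and 67.9 CPM in the M libraries and 0.471, 2.50 and 0.986 CPM in the L libraries, and Psmb9 had 65.7, 60.1 and 68.9 CPM in the H libraries, 24.9, 20.5 and 16.1 CPM in the M libraries and 0.471, 0.975 and 0.123 CPM in the L libraries. Both were highest in the H libraries, intermediate in M and lowest in L with no overlap, over spreads of 6.54 and 5.50 on the log2 scale. Psmb9 lies opposite Tap1, so some of its reads are uncertain, and its S1009 value is below the level of 3 counts. Per length, as FPKM of the inducible gene in percent of its constitutive counterpart, Psmb8 was 16.5%, 18.7% and 17.3% of Psmb5 in the H libraries, 5.79%, 5.16% and 6.86% in the M libraries and 0.0368%, 0.221% and 0.0593% in the L libraries. Psmb9 was 10.2% to 11.4% of Psmb6 in the H libraries, 1.85% to 2.71% in the M libraries and 0.00978% to 0.114% in the L libraries. Psmb10 lay near or above the level of Psmb7 with every letter, at 141%, 137% and 146% in the H libraries, 128%, 119.5% and 89.7% in the M libraries and 94.5%, 111.5% and 126% in the L libraries. By raw counts, without regard to length, Psmb10 was 44.7% to 72.7% of Psmb7. All 10 microglial markers also had H above L without overlap, and the 7 genes of class I peptide loading summed to 7490 to 8056 CPM in the H libraries, 1060 to 1395 CPM in the M libraries and 171 to 213 CPM in the L libraries. Their part in these ratios was not tested.

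**Figure D4:**
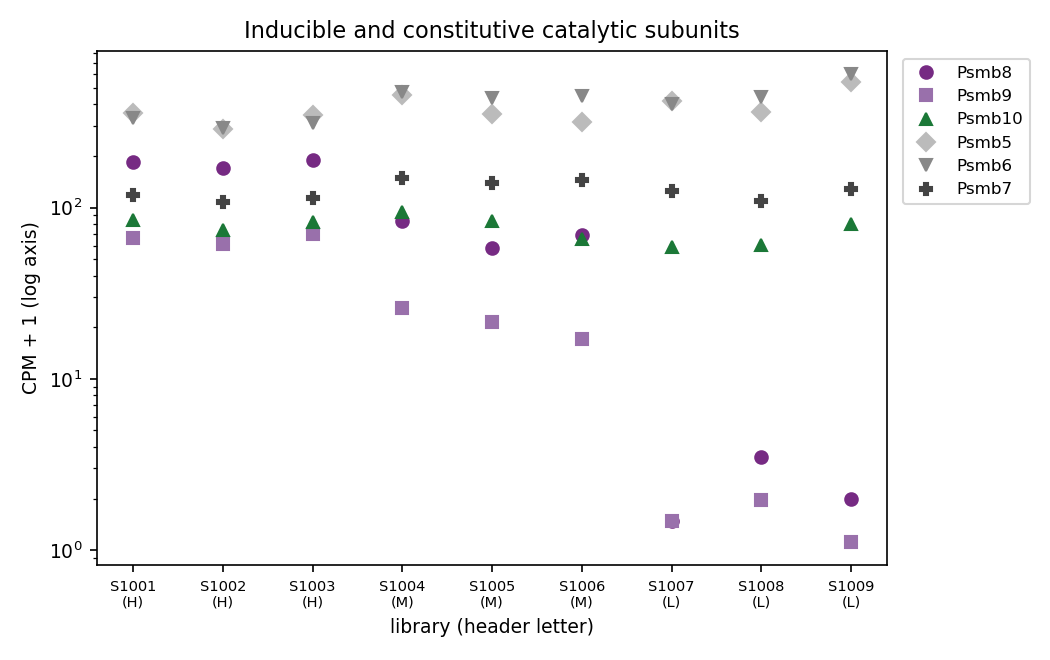
The plot of inducible subunits gives, per library and on a log axis, CPM + 1 of Psmb8, Psmb9 and Psmb10 and of Psmb5, Psmb6 and Psmb7. Psmb8 has 168 CPM or more in the H libraries and 2.50 CPM or less in the L libraries. Psmb9 has 60.1 CPM or more in H and 0.975 CPM or less in L, and Psmb10 stays at 58.1 to 93.4 CPM in all 9.

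In the base of the regulatory particle, 5 of the 6 ATPase genes had H below L (all genes 26.2%). Psmc4 (ENSMUSG00000030603, chr7:28041707-28050101, minus strand) had the largest spread of the 36 members at 1 CPM, 0.64 on the log2 scale, with 182, 187 and 192 CPM in the H libraries, 282, 226 and 259.6 CPM in the M libraries and 292, 278 and 351 CPM in the L libraries. The H libraries lay below every M and L library. The gap of 0.53 on the log2 scale between the highest H and the lowest L library was the widest of the 36. The step from H to M was narrower, from 192 CPM in S1003 to 226 CPM in S1005. Psmc5 (ENSMUSG00000020708, chr11:106256154-106263120, plus strand) followed, with 272, 284 and 288 CPM in the H libraries, 376, 333 and 375 CPM in the M libraries and 414, 380.2 and 492 CPM in the L libraries and a gap of 0.40. In Psmc5 and Psmc2 H was lowest, M intermediate and L highest with no overlap. Psmc2 had 203 to 216 CPM in the H libraries, 234 to 252 CPM in the M libraries and 264 to 309 CPM in the L libraries. In Psmc5, M and L overlapped under each of the 3 other scalings. Psmc1 had 289.5 to 318 CPM in the H libraries and 406 to 452 CPM in the L libraries, with M at 312 to 409.5 CPM. Psmc3 had 268 to 285 CPM in the H libraries, 282 to 339.7 CPM in M and 332 to 447 CPM in L, and lies opposite Slc39a13. The exception was Psmc6 (ENSMUSG00000021832, chr14:45329788-45349705, plus strand), with 154, 177 and 171 CPM in the H libraries, 158, 137 and 155 CPM in the M libraries and 188, 149.5 and 151 CPM in the L libraries. Its letters overlapped in every pairing, and its highest library was S1007 and its lowest S1005.

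The non-ATPase base genes each behaved in their own way. Psmd2 (ENSMUSG00000006998, chr16:20651652-20663414, plus strand), a scaffold that binds shuttle factors, had 269, 294 and 282 CPM in the H libraries, 286, 289.9 and 256 CPM in the M libraries and 415, 404 and 356 CPM in the L libraries. H and M were level with each other, and both lay below every L library. Psmd4 (ENSMUSG00000005625, chr3:95032694-95042614, minus strand), a ubiquitin receptor, had 226, 201 and 229 CPM in the H libraries, 328, 305 and 285 CPM in the M libraries and 307, 302 and 346 CPM in the L libraries. There the H libraries stood alone below M and L, which overlapped. Psmd1, the other large scaffold, had 203, 237 and 228 CPM in the H libraries, 181, 182 and 180.4 CPM in the M libraries and 278, 249 and 217 CPM in the L libraries. Psmd1 was the only one of the 36 with all H libraries above all M libraries, and its M libraries were also below the L libraries.

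Of the lid genes with a Psmd symbol, 8 of 8 had H below L (all genes 26.2%). With DESeq2 size factors it was 1 fewer, without Psmd3. M lay below L in 4 of 8 (all genes 15.5%). That last count was 3 with DESeq2 size factors, without Psmd13, and 2 with library totals, mitochondrial genes included or not, without Psmd13 and Psmd14. Psmd7 (ENSMUSG00000039067, chr8:107580381-107588464, minus strand), the catalytically inactive partner of Psmd14, had 224, 239 and 239 CPM in the H libraries, 281, 246 and 280.4 CPM in the M libraries and 323, 277 and 379 CPM in the L libraries. Its H libraries lay below all others, and M and L overlapped, with 281 CPM in S1004 and 277 CPM in S1008. Psmd14, the deubiquitinase that removes ubiquitin chains from captured proteins, had 198, 222 and 197 CPM in the H libraries, 233, 212 and 261 CPM in the M libraries and 277, 274 and 293 CPM in the L libraries. H and M overlapped in Psmd14, and all L libraries were higher. Psmd3 differed from the rest of the lid through 1 library. It had 111, 115 and 112 CPM in the H libraries, 116, 105 and 71.9 CPM in the M libraries and 162, 119 and 129 CPM in the L libraries, and S1006 was its lowest by far. Psmd12 was the least variable over the full range among the lid genes, with 169 to 173 CPM in the H libraries, 191 to 209.9 CPM in the M libraries and 202 to 212 CPM in the L libraries. Of these 8 lid genes it was one of 3, with Psmd7 and Psmd8, whose H libraries also lay below every M library, in Psmd8 not with DESeq2 size factors. Over all genes, H lay below M in 21.3%. Psmd8 had 163 to 169 CPM in the H libraries, 171 to 213 CPM in the M libraries and 186 to 208 CPM in the L libraries. Psmd6 had 181 to 209 CPM in the H libraries, 193 to 229 CPM in the M libraries and 218 to 256 CPM in the L libraries. Psmd11 had 111 to 117 CPM in the H libraries, 103 to 131 CPM in the M libraries and 144 to 163 CPM in the L libraries. Psmd13 lies opposite Sirt3, with a median of 85.9 CPM, and contains a pseudogene on its own strand, so its values of 87.3 to 143 CPM are uncertain.

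The assembly chaperones, which help to build the base and are absent from the finished particle, had H below L in 3 of 3 (all genes 26.2%). Psmd10 (ENSMUSG00000031429, chrX:140948429-140956728, minus strand), also called gankyrin, had 45.7, 46.8 and 45.4 CPM in the H libraries, 61.8, 53.2 and 71.6 CPM in the M libraries and 68.1, 59.5 and 62.2 CPM in the L libraries. Its H libraries lay together below all others. Psmd5 had 93.2 to 105 CPM in the H libraries, 96.7 to 133 CPM in the M libraries and 129 to 155 CPM in the L libraries. Psmd9 had 36.6 to 39.7 CPM in the H libraries, 40.4 to 54.1 CPM in the M libraries and 45.0 to 67.9 CPM in the L libraries.

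Psmc3ip, Psma8 and Psmb11, to which the name does not apply, were low. Psmc3ip had 4.83 to 9.18 CPM over the 9 libraries, with overlap between all letters, and it lies opposite the more abundant Mlx. Psma8 had 2.13, 1.23 and 1.60 CPM in the H libraries, 1.47, 0.896 and 0.872 CPM in the M libraries and 0, 0.365 and 0 CPM in the L libraries, from 0 to 28 counts a library. Its H and M libraries lay above its L libraries, with a spread of 1.38 on the log2 scale, but these are few counts, and its mean is below 1 CPM. Psmb11 was at or under 0.986 CPM everywhere.

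Per length, the core genes kept the same order at the top in every library. By FPKM, Psmb5 ranked highest, Psmb1 next and Psmb2 after it among the 14 constitutive core genes in all 9 libraries, and Psmb7 was last in 8 of 9. Psmb5 had 409, 329 and 396 FPKM in the H libraries, 516, 422 and 371 FPKM in the M libraries and 462, 416 and 590.3 FPKM in the L libraries. Psmb7 had 34.7, 31.3 and 32.9 FPKM in the H libraries, 42.5, 42.0 and 43.0 FPKM in the M libraries and 34.8, 31.6 and 35.5 FPKM in the L libraries. Between the highest and the lowest core gene the ratio of FPKM was 8.61 to 16.6, although the subunits are built into the particle in equal numbers. FPKM divides by annotated exon length, and the length implied by the deposited values equalled the summed exons of GENCODE M21 for most members; for Psmb7 it was 3421 bases and for Psmb5 871 bases. For Psmb1 it was 1036 bases, although its annotated exons sum to 4595 bases, so the place of Psmb1 depends on that length. Transcript forms with unused exons would lower an FPKM, and no isoform level was measured.

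The core and regulatory particles were compared by their median FPKM. The 14 core genes had a median of 109 to 121 FPKM in the H libraries, 137 to 152 FPKM in the M libraries and 127 to 173 FPKM in the L libraries. For the 17 regulatory genes it was 69.9 to 73.1 FPKM in the H libraries, 78.7 to 94.8 FPKM in the M libraries and 92.8 to 98.95 FPKM in the L libraries. The ratio of summed core counts to summed regulatory counts was 102.6%, 88.9% and 95.9% in the H libraries, 105.4%, 103.5% and 99.1% in the M libraries and 81.2%, 86.8% and 100.5% in the L libraries. The letters overlapped in this ratio in every pairing. On the log2 score, core genes were at -0.12, -0.23 and -0.16 in the H libraries, 0.17, 0.00 and 0.07 in the M libraries and 0.01, -0.02 and 0.35 in the L libraries. Regulatory genes were at -0.24, -0.15 and -0.18 in the H libraries, 0.02, -0.13 and -0.05 in the M libraries and 0.23, 0.10 and 0.27 in the L libraries. Both particles were lowest in the H libraries. For the core, M and L libraries mixed, whereas all 3 L libraries were above the M libraries for the regulatory particle. By single genes, M was below L in 8 of 17 regulatory and 0 of 14 core genes, beside 15.5% of all genes. With so few core genes, 0 of 14 is not far from that share. With totals without mitochondrial genes, M was below L in 5 regulatory genes.

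The transcription factor Nfe2l1 is known to raise proteasome genes through antioxidant response elements. Promoter sequences were searched for this element, and its part in the levels given here was not tested. RefSeq windows from 250 bases before to 50 bases after the transcription start, on GRCm38.p6, were found for 31 of the members. The element core TGACNNNGC, on either strand, was in 5 of the 31 genes (16.1%) and in 14.0% of the 27025 genes with a window. The 5 genes were Psmb5, Psmb6, Psmc6, Psmd9 and Psmd12, of which Psmc6 was nearly level and Psmb6 was not. The gamma-activated site TTCNNNGAA, a binding sequence of interferon signalling, was in 1 of 31 (3.23%, Psmd2) and in 9.55% of all genes. Psmb8 has one, and Psmb9 and Psmb10 have none in their windows. The windows of 4 genes are printed 5′ to 3′ on the strand of the gene, for the catalytic genes Psmb5 and Psmb6, which hold the element, and for Psmc4 and Psma1, of largest and smallest spread at 1 CPM, with the element in capitals. They are Psmb5 (chr14:54617946-54618245, minus strand), Psmb6 (chr11:70525107-70525406, plus strand), Psmc4 (chr7:28050043-28050342, minus strand) and Psma1 (chr7:114276067-114276366, minus strand).
Psmb5: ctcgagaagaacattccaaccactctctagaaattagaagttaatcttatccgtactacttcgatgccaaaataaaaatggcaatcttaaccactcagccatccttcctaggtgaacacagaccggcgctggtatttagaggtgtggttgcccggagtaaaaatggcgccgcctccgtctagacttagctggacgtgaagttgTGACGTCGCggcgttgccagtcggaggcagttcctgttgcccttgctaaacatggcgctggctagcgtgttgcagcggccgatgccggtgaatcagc
Psmb6: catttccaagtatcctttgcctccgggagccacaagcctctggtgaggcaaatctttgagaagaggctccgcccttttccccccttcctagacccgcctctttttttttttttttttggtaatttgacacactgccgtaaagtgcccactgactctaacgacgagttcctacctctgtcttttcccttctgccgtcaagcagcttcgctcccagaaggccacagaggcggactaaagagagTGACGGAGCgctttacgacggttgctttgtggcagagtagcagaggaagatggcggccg
Psmc4: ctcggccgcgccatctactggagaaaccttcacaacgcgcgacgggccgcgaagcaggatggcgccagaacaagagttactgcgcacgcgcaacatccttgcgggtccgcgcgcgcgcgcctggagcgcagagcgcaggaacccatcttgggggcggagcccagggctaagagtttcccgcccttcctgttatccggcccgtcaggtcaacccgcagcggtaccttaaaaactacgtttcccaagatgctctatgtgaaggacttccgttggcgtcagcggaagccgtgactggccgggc
Psma1: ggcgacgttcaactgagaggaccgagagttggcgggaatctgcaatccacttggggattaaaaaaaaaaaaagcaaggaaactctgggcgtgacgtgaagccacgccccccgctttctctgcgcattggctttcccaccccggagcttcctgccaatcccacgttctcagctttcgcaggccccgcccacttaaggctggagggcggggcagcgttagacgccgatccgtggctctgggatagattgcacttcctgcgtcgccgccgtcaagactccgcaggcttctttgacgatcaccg
Counted from the start, the element begins at position -47 in Psmb5 and -9 in Psmb6, and the windows of Psmc4 and Psma1 do not hold these letters. A match is a description of letters only, and for the antioxidant element the share among members was close to that among all genes.

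The wider pathway was read from 38 genes that work with the proteasome. Of these, 4 passed a 2-fold spread, namely Psmb8, Psmb9, the activator subunit gene Psme2 and the transcription factor gene Nfe2l2, and their median spread was 0.51 on the log2 scale. The share past 2-fold over all genes was 26.4%. H lay below L in 13 of 38 (all genes 26.2%) and above L in 10 of 38 (all genes 24.7%), counts not far from those shares. Nfe2l1 itself had 83.6, 78.3 and 84.0 CPM in the H libraries, 91.4, 109 and 72.2 CPM in the M libraries and 97.3, 97 and 128 CPM in the L libraries, so that H lay below L and M overlapped both. Nfe2l2, its relative in the oxidative stress response, had 129, 136 and 139.8 CPM in the H libraries, 64.8, 56.2 and 46.1 CPM in the M libraries and 0.471, 1.10 and 0.678 CPM in the L libraries. Nfe2l2 was highest in the H libraries and at 1.10 CPM or less in the L libraries, while most proteasome genes were lowest in the H libraries. The microglial markers had the same order of letters as Nfe2l2, and their part in it was not tested. The ubiquitin gene Ubb had 1275, 1242 and 1275 CPM in the H libraries, 2124, 1778 and 2429 CPM in the M libraries and 1753, 1839 and 2460.0 CPM in the L libraries, so that H lay below M and L. Psme2, a subunit of the interferon-inducible activator cap, had 61.5, 56.9 and 59.1 CPM in the H libraries, 37.1, 26.5 and 42.6 CPM in the M libraries and 19.9, 19.3 and 34.3 CPM in the L libraries, and H lay above M and L.

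The remaining lists had no gene past 2-fold and are given by counts and by their most variable gene. Over all genes, H lay below L in 26.2% and above L in 24.7%. With so few genes in each list, no count is read as a trait of its list. Of the 5 assembly factors of the core particle, 3 had H below L and 0 above. The most variable, Psmg3, had 24.2, 18.6 and 18.5 CPM in the H libraries, 33.5, 24.8 and 28.5 CPM in the M libraries and 29.9, 24.8 and 38.4 CPM in the L libraries. Of 4 genes for proteins in or bound to the regulatory particle, Adrm1, Sem1, Usp14 and Uchl5, 3 had H below L, and Sem1, a part of the lid, overlapped. Uchl5, a deubiquitinase, had 75.7, 82.0 and 82.2 CPM in the H libraries, 104, 91.1 and 124 CPM in the M libraries and 111, 109 and 134 CPM in the L libraries. Over all 38 pathway genes, H lay below L in 13 and above L in 10. Of the 6 shuttle factors, which deliver ubiquitinated proteins, 0 had H below L and 1 had H above; Ddi2, the protease that activates Nfe2l1, had 29.3, 28.1 and 30.0 CPM in the H libraries, 22.6, 31.0 and 18.9 CPM in the M libraries and 37.3, 20.2 and 18.7 CPM in the L libraries. Of the 3 genes of the segregase p97 and its cofactors, 2 had H below L; Ufd1 had 97.5, 103 and 106 CPM in the H libraries, 115, 108 and 131 CPM in the M libraries and 135, 146 and 159 CPM in the L libraries. Of the 4 ligases and other proteins associated with the proteasome, 1 had H below L and 1 above; Ube3a, the ubiquitin ligase of Angelman syndrome, had 231, 272 and 251 CPM in the H libraries, 177, 293 and 329 CPM in the M libraries and 187, 198 and 147 CPM in the L libraries.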

How the data were processed

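Each of the 9 libraries, S1001 to S1009, has a deposited table of 51912 Ensembl genes. Per the file headers it holds 2 columns by the authors, the raw count and the FPKM (count per gene length and library total). Per the submitters' processing notes, the tools included HISAT2 2.0.1, HTSeq 0.6.1, Trimmomatic 0.30 and bcl2fastq 2.17.1.14, on the build mm10; settings and strand use are not given in the sources that were used. Symbols and positions came from GENCODE M21, which held 99.6% of the identifiers.

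The labels give no dose per library, so 0 of 9 libraries have a group, header letters serve as names, and no test, mean or standard deviation is given. CPM were computed with TMM factors (edgeR 4.0.16, R 4.3.3), and genes averaging 1 CPM or more were described as log2(CPM + 1). Alternatives were scaling by DESeq2 1.42.0 size factors, by library totals or by totals without mitochondrial genes, other pseudocounts (0.5 and 5 CPM), a minimum of 10 CPM or none, the full range, and each library left out. Deposited FPKM served only to compare levels between genes. Windows came from RefSeq. Scripts were checked on simulated data and used scipy 1.17.1, pandas 2.3.3, numpy 2.4.6 and matplotlib 3.10.9 under Python 3.11.15.

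Members, lists and rules were chosen with earlier results of these data known. Values in all libraries are given for the catalytic subunits, Psmb10, the 3 members of largest and of smallest spread at 1 CPM or more, the member of highest FPKM in each role, and in each pathway list the genes past 2-fold or the most variable one. Psma7, Psma8, Psmb2, Psmd1, Psmd3, Psmd14 and Nfe2l1 were added after their values were seen.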

Additional observations from a re-analysis of the deposited data

How the results depend on the processing

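Of 242 alternative values for 24 results, 215 stayed within 20% or 1.5 times of the reported value (for the shares, within counting error) and 27 moved. Another pseudocount could not change the counts of members without overlap, since it keeps the order of the libraries. Another minimum could not change the score ranges of the roles, since each of their genes averaged more than 10 CPM. A library left out could change the score range of a role only where it was the highest or lowest. The 215 thus include values that could not move. The count of members with H above L was 1 in place of 0 with library totals, DESeq2 size factors and totals without mitochondrial genes (Psma1), and 1 with no minimum (Psma8). With no minimum, Psma8 also made 1 member past 2-fold and 2 with M above L. Over the full range, 2 members passed 2-fold and the median spread was 0.67. M below L fell to 5 with totals without mitochondrial genes. Leaving out each library in turn gave 0 to 1 members past 2-fold (Psma8, without S1008), a median spread of 0.39 to 0.45, a score range of 0.28 to 0.49 and, chosen after seeing the data, 27 to 31 members with H below L. The share of all genes with H below L was 26.2% to 33.2% in these runs. The 31 were of 37 members at 1 CPM without S1008, beside 31.3% of all genes. The score ranges of the roles were then 0.23 to 0.40 for the alpha ring, 0.59 to 0.73 for the catalytic, 0.57 to 0.77 for the structural beta subunits and 0.49 to 0.62 for the ATPases. The lowest and highest shares of counts were 0.707% and 0.981% of totals without mitochondrial genes, 0.689% and 0.965% without Psmb10, Psmb11, Psma8 and Psmc3ip, and 0.880% and 1.36% of summed FPKM. By raw counts, not per length, Psmb8 was 0.113% to 58.8% of Psmb5, Psmb9 0.0206% to 22.2% of Psmb6 and Psmb10 44.7% to 72.7% of Psmb7. The ratios moved because raw counts are not divided by gene length. The shares moved because the genes, totals or units behind them were changed. The cause of the other shifts was not tested. No paired analysis was possible because no library has a group. Depth limits Psma8 and Psmb11, which had 0 counts in some libraries, and the lowest values of Psmb8 and Psmb9 in the L libraries with the ratios made from them.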
